A study of Mus musculus with 60 samples.

Results

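The 9 genes described here encode the subunits of the neuronal nicotinic acetylcholine receptors: Chrna2, Chrna3, Chrna4, Chrna5, Chrna6, Chrna7, Chrnb2, Chrnb3 and Chrnb4. They were found by symbol among 19938 named genes on an Affymetrix Mouse Gene 1.0 ST array. Each of the 9 was represented by exactly 1 transcript cluster with that single symbol (a transcript cluster is a row of this array, a set of probes along a gene), so the rule of taking a gene's brightest row left no choice. On 60 arrays of fetal mouse brain, 6 of the 9 subunits had a mean signal above the background set by olfactory receptor genes. They were Chrna4, Chrnb2, Chrna3, Chrna7, Chrna5 and Chrnb4. Chrnb3, Chrna2 and Chrna6 lay below it. No subunit passed the test between any labelled groups. Several subunits varied together from array to array, but this was not compared with the share of all gene pairs. It therefore does not set the subunits apart from other genes.

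Neuronal nicotinic receptors are ligand-gated cation channels made of subunits around a central pore, and they open when acetylcholine or nicotine binds. The most common form in brain combines α4 (Chrna4) with β2 (Chrnb2), α7 (Chrna7) can form channels on its own, and α3 (Chrna3) joins β4 (Chrnb4), often with the accessory subunit α5 (Chrna5), in autonomic ganglia and the habenula. α6 (Chrna6) and β3 (Chrnb3) are best known from midbrain dopamine neurons and retina, and α2 (Chrna2) from the interpeduncular nucleus and a small class of interneurons. Acetylcholinesterase ends the signal at these receptors by splitting acetylcholine, and it is the main target of organophosphates such as chlorpyrifos oxon (CPO), the active metabolite of the insecticide chlorpyrifos. Paraoxonase 1 (Pon1) is a serum enzyme made in liver that hydrolyses CPO.

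Dams were dosed with CPO on gestational days 6 to 17, which is 12 days, and fetal brains were taken on gestational day 18. Each array held RNA pooled from the fetal brains of 1 dam, so the dam is the replicate, and the dams had been drawn at random once those with outlying brain acetylcholinesterase activity were left out. All mice had the strain background B6.129, and the labels gave 12 groups of 5 arrays. Wild type (WT) mice, tgHuPON1Q192 mice (Q-tg) and tgHuPON1R192 mice (R-tg), which carry a human PON1 transgene of one or the other form, received 0, 0.75 or 0.85 mg/kg/d. PON1-knockout mice (KO) received 0, 0.50 or 0.75 mg/kg/d. Neither the promoter of the transgenes nor the mouse Pon1 genotype of the transgenic lines is stated in the sources used here. The comparisons ask whether gestational CPO, the labelled genotype, or both together changed the level of a subunit.

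The log2 signals had array medians between 7.38 and 7.47. On 10 of the 60 arrays the Pon1 signal went against the genotype label or, for Q-tg and R-tg, against the other arrays of that label. On 5 arrays labelled KO its signal was 9.91 to 10.14, against 4.97 to 5.67 on the other KO arrays, and on 5 arrays labelled WT, Q-tg or R-tg it was 4.84 to 5.50, against 9.72 to 10.13 on the rest. Group names below are therefore names of labels. Some results that rest on these arrays are given with and without them, while group means and the other differences include them. The labels Q-tg and R-tg set no mouse Pon1 level. For the third array of Q-tg at 0, the first of Q-tg at 0.85 and the third of R-tg at 0.75, against the label means unlike the other arrays of that label. Of the genes that mark brain, 12 of 12 synapse genes, 8 of 8 GABA neuron genes, 6 of 6 cortex genes and 8 of 8 astrocyte and radial glia genes were above background. Of genes that mark neighbouring tissue, 8 of 10 for skeletal muscle and 5 of 8 for the pituitary were above it as well, in a table where 71.6% of all transcript clusters were, so these counts alone do not show that such tissue was present. Levels also varied between arrays. Gh, a hormone gene of the pituitary list, ranged from 6.42 to 10.735 (SD 1.43). How much pituitary tissue the pools held was not tested. The mean level of the 11 hindbrain and spinal cord genes ranged from 6.02 to 7.003 over arrays.

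Start regions of the subunits that later paragraphs compare are printed here from RefSeq (build GRCm38.p6). The table held windows for 6 of the 9 genes, which run from 250 bases before to 50 bases after an annotated start. Capitals mark the GC box GGGCGG on either strand, the letters bound by Sp1-type factors, and lower case marks the rest. The pair Chrna4 and Chrnb2 is shown because these genes varied together most closely, and Chrna3, Chrna5 and Chrnb4 because they are direct neighbours on chromosome 9.
Chrna4, chr2:181039128-181039427, minus strand: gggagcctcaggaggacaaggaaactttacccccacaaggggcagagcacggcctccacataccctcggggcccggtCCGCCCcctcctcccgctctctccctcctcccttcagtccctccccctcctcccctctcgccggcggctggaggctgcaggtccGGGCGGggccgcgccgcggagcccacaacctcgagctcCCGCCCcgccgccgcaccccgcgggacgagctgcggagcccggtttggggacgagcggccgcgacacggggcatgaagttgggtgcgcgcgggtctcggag
Chrnb2, chr3:89764583-89764882, minus strand: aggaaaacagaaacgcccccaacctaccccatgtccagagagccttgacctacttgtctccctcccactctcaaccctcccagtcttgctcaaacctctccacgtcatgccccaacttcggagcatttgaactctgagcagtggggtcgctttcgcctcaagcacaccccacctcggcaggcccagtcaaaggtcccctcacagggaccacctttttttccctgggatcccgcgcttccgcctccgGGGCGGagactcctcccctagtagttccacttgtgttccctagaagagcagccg
Chrna3, chr9:55026513-55026812, minus strand: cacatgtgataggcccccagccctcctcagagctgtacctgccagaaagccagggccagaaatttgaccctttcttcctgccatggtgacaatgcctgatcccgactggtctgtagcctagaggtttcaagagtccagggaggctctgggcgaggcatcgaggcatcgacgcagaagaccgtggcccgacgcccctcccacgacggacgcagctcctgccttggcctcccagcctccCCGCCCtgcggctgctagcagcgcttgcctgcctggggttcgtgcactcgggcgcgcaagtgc
Chrna5, chr9:54981238-54981537, plus strand: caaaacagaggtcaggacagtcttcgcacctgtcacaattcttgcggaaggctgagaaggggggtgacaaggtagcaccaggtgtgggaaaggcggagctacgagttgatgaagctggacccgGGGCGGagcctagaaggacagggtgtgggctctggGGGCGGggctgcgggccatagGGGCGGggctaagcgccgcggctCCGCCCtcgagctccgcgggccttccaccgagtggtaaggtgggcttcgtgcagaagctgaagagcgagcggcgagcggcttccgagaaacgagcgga
Chrnb4, chr9:55048495-55048794, minus strand: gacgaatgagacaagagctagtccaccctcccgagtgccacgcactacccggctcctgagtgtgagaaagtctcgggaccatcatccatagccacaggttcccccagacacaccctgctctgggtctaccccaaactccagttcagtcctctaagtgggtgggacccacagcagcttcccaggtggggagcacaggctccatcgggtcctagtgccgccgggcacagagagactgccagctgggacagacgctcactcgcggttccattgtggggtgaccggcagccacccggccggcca
The Chrna4 window held 3 GC boxes and a GC content of 74.3%, above 95.6% of the 32851 windows in the table. The Chrna5 window held 4 GC boxes and 65.0% GC, and Chrnb2 (59.0% GC) and Chrna3 (64.3% GC) held 1 box each. Chrnb4, at 63.0% GC, held none, but had 1 match to the E box CAGCTG. A second annotated start of Chrna5, at chr9:54980630-54980929, had no match and 41.3% GC, and the Chrna7 window (chr7:63212477-63212776, minus strand) had 1 GC box and 70.0% GC. Over all windows, 35.7% held a GC box and 16.3% this E box, on either strand. A match describes the letters in the window and is not a measured binding site.

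Background was defined as the 95th percentile of the mean log2 signals of 1035 olfactory receptor transcript clusters, which was 6.54. Olfactory receptor genes are used mainly in the nasal epithelium, and their median here was 4.97. Of all 21789 transcript clusters with a single gene symbol, 71.6% were above 6.54, so 6 of 9 subunits is a share close to that of all genes on the array. Chrna4, Chrnb2, Chrna3, Chrna7, Chrna5 and Chrnb4 were each above the background of the same array on 60 of 60 arrays. Chrnb3 was above it on 5 arrays, Chrna6 on 1 and Chrna2 on 0. A stricter background, the 99th percentile of the same receptors at 7.27, removed Chrna5 and Chrnb4 and left 4 subunits. Since probes differ in how strongly they bind, these signals were not compared from one subunit to another, and a low signal bounds what this row could detect rather than showing that a subunit is absent.

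**Figure D1:**
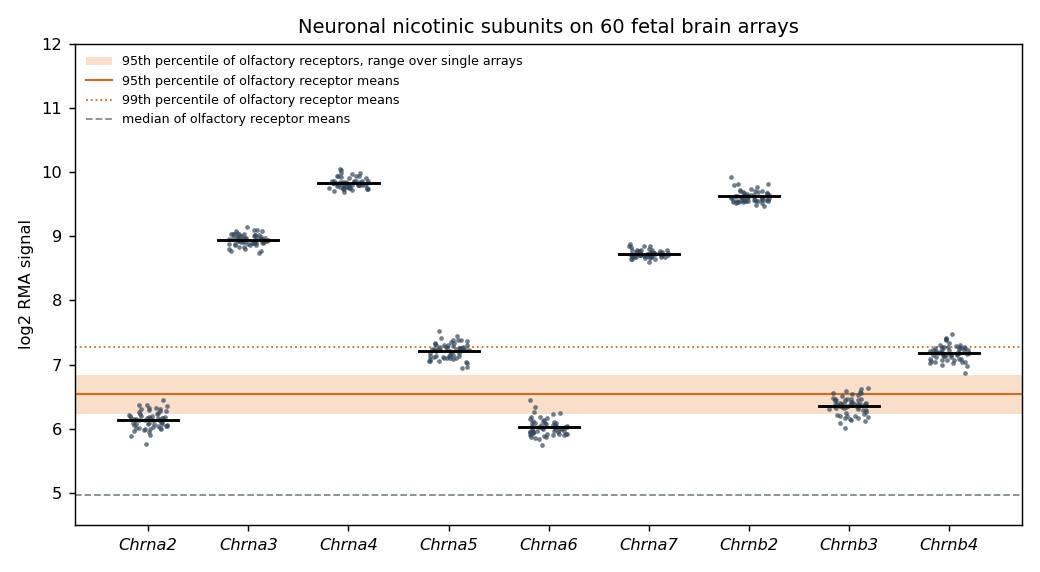
Log2 RMA signal of each subunit (y axis) on the 60 arrays (points), with the mean as a black bar. The orange line is the 95th percentile of olfactory receptor means at 6.54, the band is its range over single arrays from 6.23 to 6.84, the dotted line is the 99th percentile at 7.27 and the dashed line the median at 4.97. Chrna3, Chrna4, Chrna7 and Chrnb2 lie above every line on all arrays, Chrna5 and Chrnb4 lie around the dotted line, and Chrna2, Chrna6 and Chrnb3 lie around or below the band.

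Chrna4 and Chrnb2 form the α4β2 receptor, the main high-affinity binding site for nicotine in brain. Chrna4 had a mean of 9.83 (SD 0.080 over 60 arrays), with a lowest value of 9.70, a median of 9.82 and a highest value of 10.06. The highest came from the fifth array of R-tg at 0.85, and the next, 10.03, from the first array of R-tg at 0. At dose 0, Chrna4 averaged 9.82 ± 0.027 in WT, 9.90 ± 0.070 in KO, 9.81 ± 0.030 in Q-tg and 9.85 ± 0.12 in R-tg (mean ± SD over 5 arrays, here and in the following group values). At 0.75, Chrna4 averaged 9.86 ± 0.074 in WT, 9.80 ± 0.11 in KO, 9.83 ± 0.074 in Q-tg and 9.78 ± 0.062 in R-tg. At 0.50, Chrna4 averaged 9.81 ± 0.047 in KO, and at 0.85 it averaged 9.84 ± 0.10 in WT, 9.85 ± 0.055 in Q-tg and 9.81 ± 0.14 in R-tg. No group stood apart: the largest step between neighbours in the order of the 12 means was 0.038, between WT at 0.75 and KO at 0, against an SD within groups of 0.082. Chrnb2 had a mean of 9.62 (SD 0.087), with a lowest value of 9.47, a median of 9.61 and a highest value of 9.92. Its highest and lowest arrays were both in the R-tg group at 0.85. At dose 0, Chrnb2 averaged 9.58 ± 0.042 in WT, 9.68 ± 0.12 in KO, 9.58 ± 0.041 in Q-tg and 9.66 ± 0.090 in R-tg. At 0.75, Chrnb2 averaged 9.62 ± 0.044 in WT, 9.58 ± 0.044 in KO, 9.63 ± 0.061 in Q-tg and 9.56 ± 0.039 in R-tg. At 0.50, Chrnb2 averaged 9.68 ± 0.095 in KO, and at 0.85 it averaged 9.59 ± 0.10 in WT, 9.69 ± 0.028 in Q-tg and 9.62 ± 0.18 in R-tg. The largest step between neighbouring Chrnb2 means was 0.029, between Q-tg at 0.75 and R-tg at 0, against 0.085 within groups. The spread was uneven over groups, from an SD of 0.028 in Q-tg at 0.85 to 0.18 in R-tg at 0.85.

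Chrna7 encodes α7, a calcium-permeable subunit that is also the site of α-bungarotoxin binding in brain. Chrna7 had a mean of 8.73 (SD 0.056), with a lowest value of 8.60, a median of 8.72 and a highest value of 8.88. Its SD within groups, 0.059, was small for its level: 1.75% of the 2113 transcript clusters of similar mean level had a smaller one, compared with 40.5% for Chrna3, 63.4% for Chrna4 and 65.9% for Chrnb2 among transcript clusters of their levels. At dose 0, Chrna7 averaged 8.73 ± 0.036 in WT, 8.70 ± 0.061 in KO, 8.72 ± 0.018 in Q-tg and 8.74 ± 0.069 in R-tg. At 0.75, Chrna7 averaged 8.74 ± 0.033 in WT, 8.73 ± 0.080 in KO, 8.71 ± 0.034 in Q-tg and 8.72 ± 0.049 in R-tg. At 0.50, Chrna7 averaged 8.74 ± 0.069 in KO, and at 0.85 it averaged 8.72 ± 0.041 in WT, 8.75 ± 0.046 in Q-tg and 8.76 ± 0.11 in R-tg. The 12 means of Chrna7 spanned 0.059 in all, from KO at 0 to R-tg at 0.85, and the largest step between neighbours in their order was 0.014. Its widest group was again R-tg at 0.85, whose arrays held both the lowest and the highest Chrna7 value of the 60.

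Chrna3, Chrna5 and Chrnb4 encode the subunits of the ganglionic receptor, which also serves the projection from the medial habenula to the interpeduncular nucleus. In the GRCm38.p6 gene table they are consecutive protein-coding genes on chromosome 9 in the order Chrna5, Chrna3, Chrnb4. The annotated Chrna5, on the plus strand, and Chrna3, on the minus strand, overlap. Whether probes of one gene read a neighbour's transcript was not tested. Chrna3 had a mean of 8.95 (SD 0.085), a lowest value of 8.74, a median of 8.95 and a highest value of 9.14. At dose 0, Chrna3 averaged 8.95 ± 0.080 in WT, 8.94 ± 0.082 in KO, 8.90 ± 0.047 in Q-tg and 8.98 ± 0.077 in R-tg. At 0.75, Chrna3 averaged 8.998 ± 0.062 in WT, 8.95 ± 0.057 in KO, 8.998 ± 0.076 in Q-tg and 8.85 ± 0.12 in R-tg. At 0.50, Chrna3 averaged 8.99 ± 0.062 in KO, and at 0.85 it averaged 8.93 ± 0.067 in WT, 8.92 ± 0.094 in Q-tg and 8.96 ± 0.13 in R-tg. The lowest Chrna3 mean, in R-tg at 0.75, was 0.046 below the next group, Q-tg at 0, against an SD within groups of 0.082. Chrna5 had a mean of 7.22 (SD 0.12), a lowest value of 6.95, a median of 7.23 and a highest value of 7.53. Its mean exceeded that of 98.7% of olfactory receptors. At dose 0, Chrna5 averaged 7.20 ± 0.082 in WT, 7.24 ± 0.086 in KO, 7.14 ± 0.12 in Q-tg and 7.27 ± 0.11 in R-tg. At 0.75, Chrna5 averaged 7.35 ± 0.12 in WT, 7.22 ± 0.12 in KO, 7.22 ± 0.095 in Q-tg and 7.20 ± 0.13 in R-tg. At 0.50, Chrna5 averaged 7.23 ± 0.10 in KO, and at 0.85 it averaged 7.21 ± 0.14 in WT, 7.24 ± 0.11 in Q-tg and 7.08 ± 0.11 in R-tg. The highest Chrna5 mean, in WT at 0.75, was 0.083 above that of R-tg at 0, within the SD of 0.11. Chrnb4 had a mean of 7.18 (SD 0.12), a lowest value of 6.86, a median of 7.18 and a highest value of 7.47, and it exceeded 98.6% of olfactory receptors. Both extremes of Chrnb4 came from the WT group at 0.85, which was also its most variable group. At dose 0, Chrnb4 averaged 7.17 ± 0.064 in WT, 7.21 ± 0.11 in KO, 7.20 ± 0.055 in Q-tg and 7.20 ± 0.16 in R-tg. At 0.75, Chrnb4 averaged 7.11 ± 0.075 in WT, 7.17 ± 0.12 in KO, 7.21 ± 0.14 in Q-tg and 7.17 ± 0.068 in R-tg. At 0.50, Chrnb4 averaged 7.19 ± 0.12 in KO, and at 0.85 it averaged 7.22 ± 0.23 in WT, 7.27 ± 0.091 in Q-tg and 7.10 ± 0.10 in R-tg. The largest step between neighbouring Chrnb4 means was 0.065, between WT and KO at 0.75, against an SD within groups of 0.12.

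The remaining 3 subunits were not clear of background in whole fetal brain. In bulk tissue, few cells of a type and little RNA per cell cannot be told apart. Chrnb3 came closest, with a mean of 6.36 (SD 0.14), a lowest value of 6.02, a median of 6.37 and a highest value of 6.63. Chrnb3 and Chrna6 are neighbours on chromosome 8. At dose 0, Chrnb3 averaged 6.31 ± 0.066 in WT, 6.38 ± 0.15 in KO, 6.43 ± 0.12 in Q-tg and 6.39 ± 0.13 in R-tg. At 0.75, Chrnb3 averaged 6.17 ± 0.17 in WT, 6.32 ± 0.071 in KO, 6.38 ± 0.066 in Q-tg and 6.396 ± 0.13 in R-tg. At 0.50, Chrnb3 averaged 6.38 ± 0.058 in KO, and at 0.85 it averaged 6.42 ± 0.17 in WT, 6.35 ± 0.19 in Q-tg and 6.37 ± 0.17 in R-tg. Only here was a step between neighbouring means as large as the spread: the WT group at 0.75 was 0.145 below WT at 0, which is 1.09 times the SD within groups of 0.133. Chrna6 had a mean of 6.02 (SD 0.13), a lowest value of 5.75, a median of 6.01 and a highest value of 6.45 on 1 KO array at 0.50, the only array on which it passed that array's background. At dose 0, Chrna6 averaged 5.96 ± 0.10 in WT, 6.04 ± 0.10 in KO, 6.03 ± 0.16 in Q-tg and 6.08 ± 0.10 in R-tg. At 0.75, Chrna6 averaged 6.03 ± 0.093 in WT, 5.98 ± 0.16 in KO, 5.99 ± 0.077 in Q-tg and 5.92 ± 0.060 in R-tg. At 0.50, Chrna6 averaged 6.13 ± 0.20 in KO, and at 0.85 it averaged 6.03 ± 0.14 in WT, 6.01 ± 0.093 in Q-tg and 6.07 ± 0.17 in R-tg. The means of Chrna6 lay within 0.21 of each other. Chrna2 had a mean of 6.14 (SD 0.13), a lowest value of 5.765, a median of 6.14 and a highest value of 6.44. At dose 0, Chrna2 averaged 6.22 ± 0.12 in WT, 6.00 ± 0.16 in KO, 6.11 ± 0.063 in Q-tg and 6.07 ± 0.080 in R-tg. At 0.75, Chrna2 averaged 6.05 ± 0.13 in WT, 6.23 ± 0.081 in KO, 6.24 ± 0.086 in Q-tg and 6.14 ± 0.16 in R-tg. At 0.50, Chrna2 averaged 6.08 ± 0.091 in KO, and at 0.85 it averaged 6.15 ± 0.12 in WT, 6.17 ± 0.13 in Q-tg and 6.17 ± 0.20 in R-tg. Chrna2 had the largest F statistic of the 9 subunits, 1.95 over the 12 groups (limma, unadjusted p = 0.0539, adjusted p = 0.95), and its means spanned 0.24.

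**Figure D2:**
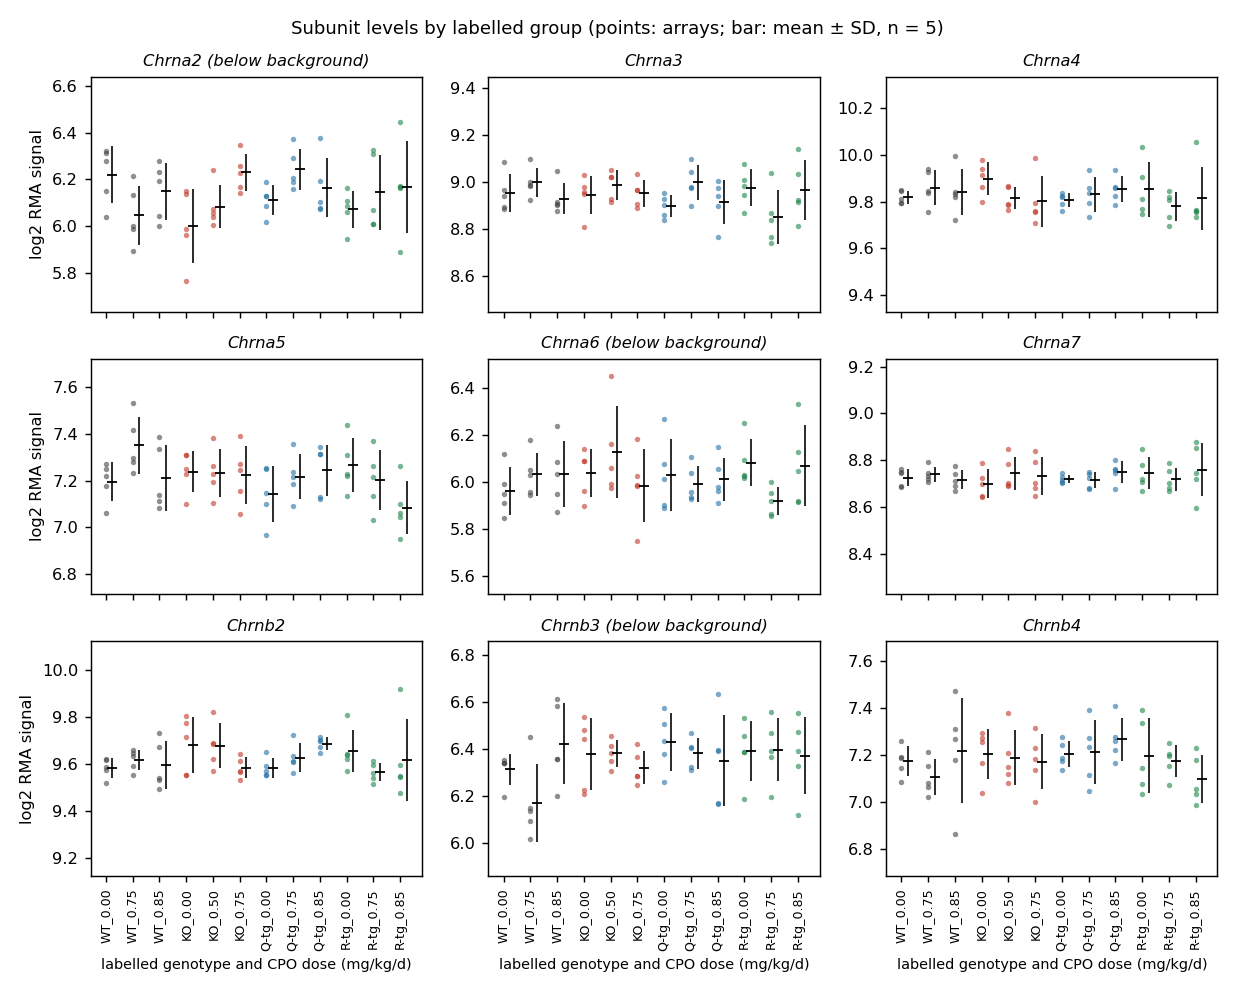
Log2 RMA signal (y axis, the same length in every panel) of each subunit in the 12 labelled groups (x axis, genotype and CPO dose in mg/kg/d). Points are single arrays, 5 a group, and bars are the mean ± SD. The Chrna7 points form the flattest band, the single high points of Chrna4 and Chrnb2 in R-tg at 0.85 are the same array, and among the CPO comparisons the arrays of a dose and of dose 0 overlap in every case but Chrna6 in R-tg at 0.75.

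No subunit passed the test for an effect of CPO. In the 8 comparisons of a CPO dose with dose 0 within a labelled genotype, limma called 0 of 9 subunits at an adjusted p of 0.05, and it called 0 of 21789 transcript clusters in each of them, a background of 0%. At an unadjusted p under 0.05 there were 6 of 72 subunit differences, against 4.18% of all differences in these 8 comparisons. The F test over the 12 groups called 0 of 9 subunits as well. None had an unadjusted p under 0.05 there, a level reached by 4.84% of all transcript clusters. Over all 21 contrasts, 15 of 189 subunit differences had an unadjusted p under 0.05, against a background of 4.62%. The intervals limit how far a subunit may have moved. In the 8 comparisons, the 95% intervals of Chrna7 reached from 0.929-fold to 1.09-fold, of Chrna4 from 0.869-fold to 1.11-fold, of Chrnb2 from 0.868-fold to 1.16-fold, and of Chrna3 from 0.851-fold to 1.16-fold. They were wider for Chrna5, from 0.799-fold to 1.23-fold, and for Chrnb4, from 0.842-fold to 1.16-fold. The 2 averages over genotypes, at 0.75 and at 0.85, also gave 0 calls and no subunit at an unadjusted p under 0.05.

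The 6 differences at an unadjusted p under 0.05 involved Chrna2, Chrna3, Chrna5 and Chrna6. In WT, Chrna2 was 6.32, 6.04, 6.15, 6.28 and 6.31 at dose 0 and 6.13, 6.00, 5.99, 5.90 and 6.22 at 0.75, so that all 5 treated arrays lay below the control mean while the groups overlapped. The difference was -0.17 (SE 0.077, unadjusted p = 0.0286, limma adjusted p = 0.464). Chrna5 in the same comparison was 7.18, 7.27, 7.22, 7.25 and 7.06 at dose 0 and 7.41, 7.23, 7.53, 7.28 and 7.30 at 0.75, with all 5 treated arrays above the control mean. The difference was 0.15 (SE 0.070, unadjusted p = 0.0331, adjusted p = 0.467). The second WT control array, at 6.04 for Chrna2 and 7.27 for Chrna5, is among the 10 arrays whose Pon1 level goes against their label. When any 1 array was left out, the difference ran from -0.22 to -0.14 for Chrna2 and from 0.11 to 0.18 for Chrna5. Both differences came from the comparison in which 10.2% of all transcript clusters had an unadjusted p under 0.05. The arrays of WT at 0.75 also had a low lower quartile (the 25th percentile of an array's signals), 6.28 ± 0.061 against 6.36 ± 0.050 in WT at 0. With the lower quartile as a covariate, the difference was -0.083 for Chrna2 and 0.069 for Chrna5. At 0.85 in WT the differences were -0.070 for Chrna2 and 0.016 for Chrna5.

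In KO the direction for Chrna2 was the opposite. Chrna2 was 5.765, 5.96, 5.99, 6.15 and 6.14 at dose 0 and 6.23, 6.17, 6.26, 6.14 and 6.35 at 0.75, and only 1 control array reached the lowest treated value. The difference was 0.23 (SE 0.077, unadjusted p = 0.00437, adjusted p = 0.999), and all 5 treated arrays were above the control mean. An unadjusted p under 0.05 was found for 2.9% of all transcript clusters in this comparison. The Chrna2 difference was 0.12 (unadjusted p = 0.265) without the 10 arrays whose Pon1 level goes against their label, of which 2 were KO controls and 3 were KO arrays at 0.75. Chrna2 was below background on every one of these arrays, so a difference here is one between low signals. At 0.50 in KO the Chrna2 difference was 0.082.

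R-tg gave the other 3 differences, each of them a lower value with CPO, where 5.31% of all transcript clusters at 0.75 and 4.86% at 0.85 had an unadjusted p under 0.05. Chrna3, at 0.75, was 8.84, 8.77, 9.04, 8.74 and 8.87, against 9.01, 8.87, 9.08, 8.94 and 8.98 at dose 0. Of the treated arrays 4 of 5 were below the control mean, and the difference was -0.13 (SE 0.053, unadjusted p = 0.0209, adjusted p = 0.898). The 1 treated array above it, replicate 3, is among the 10 arrays named above, with a Pon1 level unlike that of the other R-tg arrays. Without those 10 arrays the difference was -0.17. At 0.85 the Chrna3 difference was -0.011. Chrna6, at 0.75, was 5.86, 5.95, 5.86, 5.92 and 6.00, against 6.01, 6.25, 6.03, 6.09 and 6.02 at dose 0. This was the only one of the 72 pairs of groups without overlap. Over the 8 comparisons together, such a separation made up 0.854% of all cases, and in that comparison it was found in 0.688% of all transcript clusters. The Chrna6 difference was -0.16 (SE 0.079, unadjusted p = 0.0418, adjusted p = 0.898), between values that were all below background, and at 0.85 it was -0.014. Chrna5, at 0.85, was 7.26, 7.10, 6.95, 7.04 and 7.06, against 7.44, 7.23, 7.22, 7.13 and 7.31 at dose 0. All 5 treated arrays were below the control mean, with a difference of -0.18 (SE 0.070, unadjusted p = 0.0121, adjusted p = 0.987), but at 0.75 the Chrna5 difference in R-tg was -0.064.

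Read as a group, the 6 subunits above background differed in direction from comparison to comparison. In R-tg at 0.75, 0 of 6 were higher than at dose 0, with a median difference of -0.068, while 41.0% of all transcript clusters were higher, with a median of -0.016. In Q-tg at 0.85, 6 of 6 were higher, with a median of 0.056, while 58.7% of all transcript clusters were higher, with a median of 0.014. The other 6 comparisons lay between, with 1 to 5 of the 6 higher. These counts describe the list and were not tested.

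**Figure D3:**
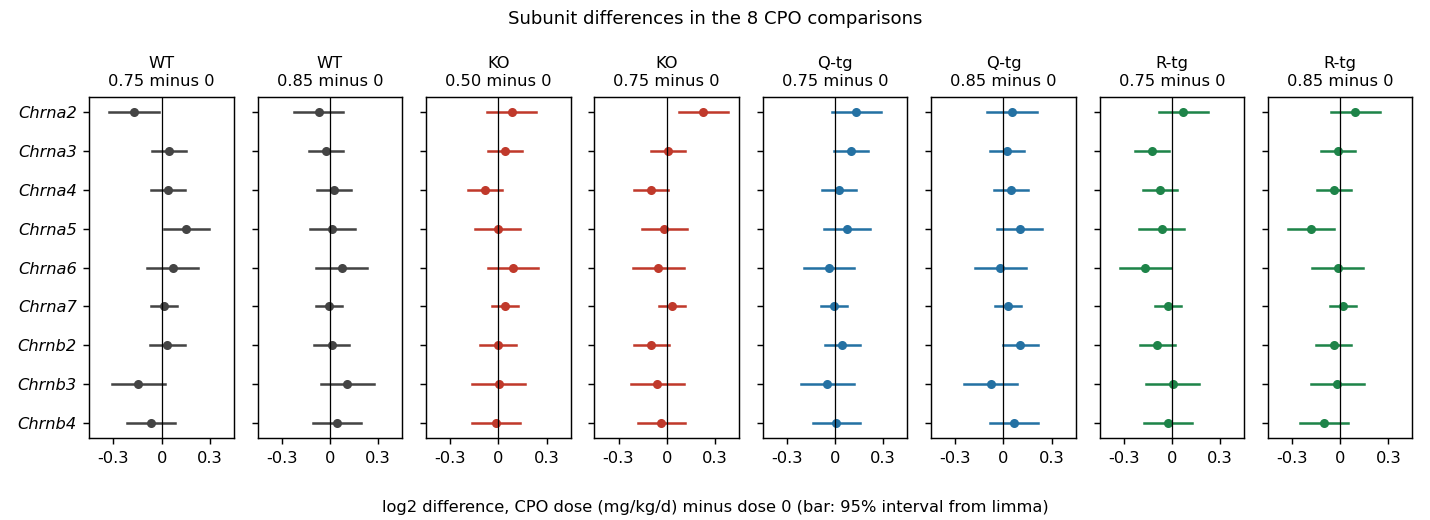
Log2 difference of a CPO dose minus dose 0 (x axis) for each subunit (y axis) in the 8 comparisons (panels, doses in mg/kg/d), with 95% intervals from limma. Most intervals include 0; the 6 that do not are those of Chrna2 and Chrna5 in WT at 0.75, Chrna2 in KO at 0.75, Chrna3 and Chrna6 in R-tg at 0.75 and Chrna5 in R-tg at 0.85, and none passed adjustment over all genes.

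Between labelled genotypes at dose 0, limma again called 0 of 9 subunits in each of 4 comparisons, with a background of 0%. The 1 of 36 differences at an unadjusted p under 0.05 (a background of 3.25% in that comparison) was Chrna2, lower in KO than in WT, with a difference of -0.22 (SE 0.077, unadjusted p = 0.00610, adjusted p = 0.999). Without the arrays whose Pon1 level goes against their label it was -0.17 (unadjusted p = 0.0612). For the brighter subunits the genotype differences were small: those of Chrna7 lay between -0.026 and 0.024, and those of Chrna4 between -0.013 and 0.079. Chrnb2 was higher in KO than in WT by 0.098, the largest of its 4 differences (unadjusted p = 0.0781, adjusted p = 0.999), and R-tg exceeded WT in 6 of the 6 subunits above background, with a median of 0.028 against 0.013 over all transcript clusters.

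Differences of the CPO response between genotypes ask whether a dose moved a subunit more in one genotype than in another. Of the 63 such differences (7 comparisons), limma called 0, and 8 had an unadjusted p under 0.05. The share of all transcript clusters at that level was not computed over the 7 comparisons together. In the single comparisons that held these 8 it ran from 2.23% to 13%. That range leaves out the comparisons of Q-tg and of R-tg with WT at 0.85, which held none of the 8. The count of 8 therefore has no matching background and does not set the subunits apart from other genes. Over all transcript clusters 1 was called in the comparison of R-tg with WT at 0.75, a background of 0.00459%, and 0 in the others. The largest subunit difference was Chrna2 at 0.75, where the response of KO minus that of WT was 0.40 (SE 0.11, unadjusted p = 0.000519, adjusted p = 0.635), in a comparison where 7.59% of all transcript clusters had an unadjusted p under 0.05. All 5 treated WT arrays lay below the mean of their controls and all 5 treated KO arrays above the mean of theirs. The same difference was 0.30 for Q-tg minus WT (unadjusted p = 0.00696, adjusted p = 1.00, background 2.23%) and 0.25 for R-tg minus WT (unadjusted p = 0.0282, adjusted p = 0.350), all of which share the WT arrays. For KO minus WT it was 0.34 without the 10 arrays named above, and 0.31 with the lower quartile as a covariate. The responses of Chrna3, Chrna5 and Chrna6 at 0.75 were lower in R-tg than in WT, with differences of -0.17, -0.22 and -0.23 and adjusted p-values of 0.347, 0.353 and 0.368. In that comparison 13% of all transcript clusters had an unadjusted p under 0.05, and 4 of 9 subunits did. Against Q-tg, the response of R-tg was also lower, with a difference of -0.23 for Chrna3 at 0.75 (adjusted p = 0.840) and of -0.28 for Chrna5 at 0.85 (adjusted p = 0.546), with an unadjusted p under 0.05 for 5.81% and 8.2% of all transcript clusters.

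Other parts of the cholinergic system were measured on the same arrays. Of the proteins that assist or modulate nicotinic receptors, 8 of 8 measured were above background, among them Ric3, a chaperone of receptor assembly, at 8.11, Tmem35a (NACHO), a second chaperone, at 9.66, and Lynx1, a membrane-anchored modulator, at 7.91. Muscle and sensory nicotinic subunits were near background, with 2 of 7 above it: Chrne at 6.71 and Chrng at 6.71. Chat, which makes acetylcholine, was below background at 6.17, while 6 of 7 genes of cholinergic neurons were above it, among them the vesicular transporter Slc18a3 at 7.33, the choline transporter Slc5a7 at 7.38 and acetylcholinesterase (Ache) at 8.88. Muscarinic receptors, the G protein-coupled receptors for acetylcholine, were above it in 5 of 5 cases. Since 71.6% of all transcript clusters were above background, counts over such short lists do not set these genes apart. In the 21 comparisons limma called 0 genes of these lists.

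Subunits were next compared for how they varied from array to array within groups. For each of the 36 pairs, values minus their group mean were correlated over the 60 arrays, with a 2-sided permutation test and Benjamini-Hochberg adjustment over the 36. Each array holds the pool of 1 dam, so a correlation covers differences between pools, in dissection and in the arrays, which cannot be told apart here. Of the 36 pairs, 9 passed. This count has no background beside it, since the share of all gene pairs that reach such a size was not computed. It therefore does not set the subunits apart from other genes. Among the 36 pairs, the values were as follows. The closest was Chrna4 with Chrnb2, the α4β2 pair, at r = 0.66 (Spearman 0.57, adjusted p = 0.00018, a value set by the smallest p that 100000 resamples can give). Chrna3 followed Chrna4 at r = 0.55 (Spearman 0.49, adjusted p = 0.00018). Chrna6 with Chrna7 gave 0.49 (Spearman 0.41, adjusted p = 0.00135), Chrna3 with Chrna5 0.45 (Spearman 0.48, adjusted p = 0.00135), Chrna2 with Chrnb4 0.46 (Spearman 0.44, adjusted p = 0.00166), and Chrna2 with Chrnb3 0.45 (Spearman 0.41, adjusted p = 0.00186). Chrna2 with Chrna5 was negative at -0.38 (Spearman -0.36, adjusted p = 0.0120). Chrna2, Chrna6 and Chrnb3 were below background, so pairs that include them rest on low signals. Chrna6 with Chrna7 was also uneven over labelled genotypes, at 0.21 in WT, 0.69 in KO, 0.35 in Q-tg and 0.50 in R-tg.

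The α4β2 correlation was positive in each labelled genotype, at 0.47 in WT, 0.38 in KO, 0.51 in Q-tg and 0.93 in R-tg (15 arrays each). It was 0.58 without the 2 arrays farthest from the median of Chrna4, 0.76 without the 10 arrays whose Pon1 level goes against their label, and between 0.53 and 0.70 when any 1 array was left out. The lowest of these was without the fifth array of R-tg at 0.85. That array also carried Chrna3 with Chrnb2 (r = 0.37, Spearman 0.24), which fell to 0.23 (adjusted p = 0.204) without it. Chrna4 with Chrna7 (r = 0.37, Spearman 0.20) was 0.25 (adjusted p = 0.171) without it, 0.29 (adjusted p = 0.0844) without the first array of KO at 0.75 and 0.30 (adjusted p = 0.0784) without the first of R-tg at 0, so this pair rests on single arrays. Chrna2 with Chrna5 rests on few arrays too, at -0.30 (adjusted p = 0.0802) without the 2 farthest from the median of Chrna2. Among 13464 other genes above background, 1.13% had a higher r with Chrna4 than Chrnb2 had, and 5.49% had a higher r with Chrnb2 than Chrna4 had. For Chrna3 with Chrna4 these shares were 0.513% with Chrna3 and 7.61% with Chrna4, and for Chrna3 with Chrna5 they were 4.34% with Chrna3 and 14.6% with Chrna5. They were larger for Chrna3 with Chrnb2, at 14.1% with Chrna3 and 39.5% with Chrnb2, and for Chrna4 with Chrna7, at 32.6% with Chrna4 and 12.9% with Chrna7.

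**Figure D4:**
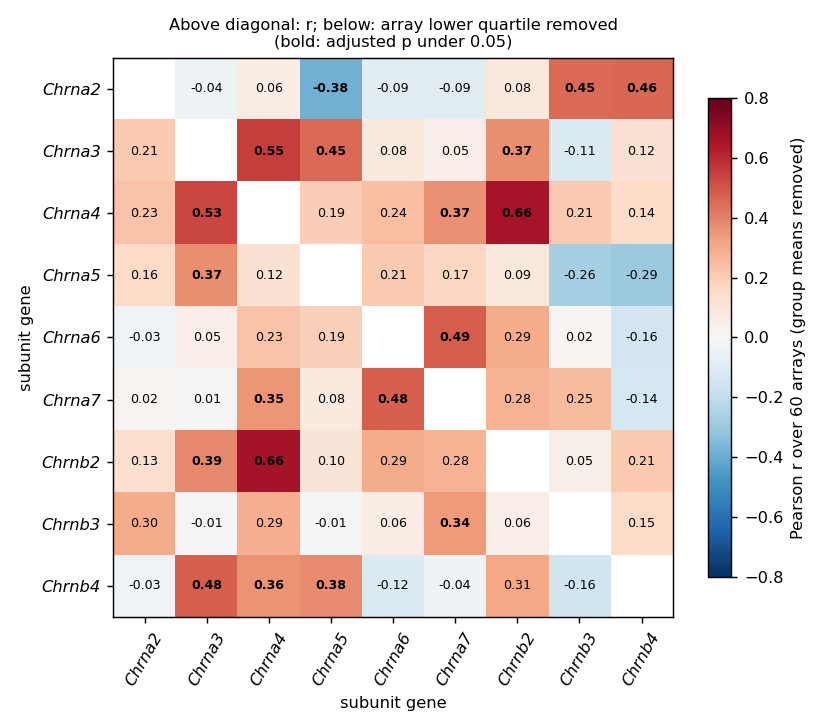
Pearson r over 60 arrays between the subunits on the axes, with group means removed, above the diagonal, and with the lower quartile of the array removed as well, below it. Bold values have an adjusted p under 0.05 over 36 pairs. Chrna4 with Chrnb2 stays at 0.66 on both sides, while Chrna5 with Chrnb4 turns from -0.29 to 0.38.

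Several subunits varied with the signal distribution of the array. Chrna2 and Chrnb4 rose with the lower quartile over arrays, at r = 0.67 and 0.70, and Chrna5 fell with it, at -0.70 (Spearman 0.69, 0.64 and -0.68, each with an adjusted p of 3e-05 over 9 relations). Without the 2 farthest arrays these were 0.70, 0.63 and -0.68. Chrnb3 gave 0.37 (Spearman 0.33, adjusted p = 0.00891), while Chrna4, Chrna6, Chrna7 and Chrnb2 did not pass. Chrna3 gave -0.29 (Spearman -0.31, adjusted p = 0.0462), which is under the threshold of 0.05. It is so near it that the way the permutations were made could decide the call. This is a property shared with much of the array: transcript clusters below background had a median r of 0.55 with the lower quartile, 90.7% of them positive, and those above it had a median of -0.25, 31.1% positive. With 0.70, Chrnb4 was thus on the side of the genes below background although it was above it on 60 of 60 arrays, and the neighbouring Chrna5 was on the other side. Removing the lower quartile took Chrna2 with Chrnb4 from 0.46 to -0.026, Chrna2 with Chrna5 from -0.38 to 0.16 and Chrna2 with Chrnb3 from 0.45 to 0.30 (adjusted p = 0.0600).

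The 3 neighbours on chromosome 9 correlated with each other once the lower quartile had been removed, and before that only in part. Chrna3 with Chrna5 was 0.45 before and 0.37 after (Spearman 0.46, adjusted p = 0.0194). Chrna3 with Chrnb4 was 0.12 before (adjusted p = 0.495) and 0.48 after (Spearman 0.45, adjusted p = 0.00168). Chrna5 with Chrnb4 was -0.29 before (adjusted p = 0.0753) and 0.38 after (Spearman 0.38, adjusted p = 0.0180). After removal, all 3 pairs were positive in each of the 4 labelled genotypes, from 0.12 to 0.65, and stayed between 0.31 and 0.51 when any 1 array was left out. Without the 10 arrays whose Pon1 level goes against their label they were 0.33, 0.47 and 0.40. Other genes above background were set beside these values after the same removal. For Chrna3 with Chrna5, 9.17% of them had a higher r with Chrna3 than Chrna5 had, and 0.795% a higher r with Chrna5 than Chrna3 had. For Chrna3 with Chrnb4, the shares were 1.4% with Chrna3 and 1.52% with Chrnb4. For Chrna5 with Chrnb4, they were 0.654% with Chrna5 and 8.26% with Chrnb4. By contrast, the neighbours Chrna6 and Chrnb3 on chromosome 8, both below background, gave 0.016 before and 0.059 after removal (adjusted p = 0.902 and 0.865). As for sequence, the GC box of the start regions printed above was present at Chrna3 and at 1 start of Chrna5 and had no match in the Chrnb4 window, so these letters are not common to the 3 windows.

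**Figure D5:**
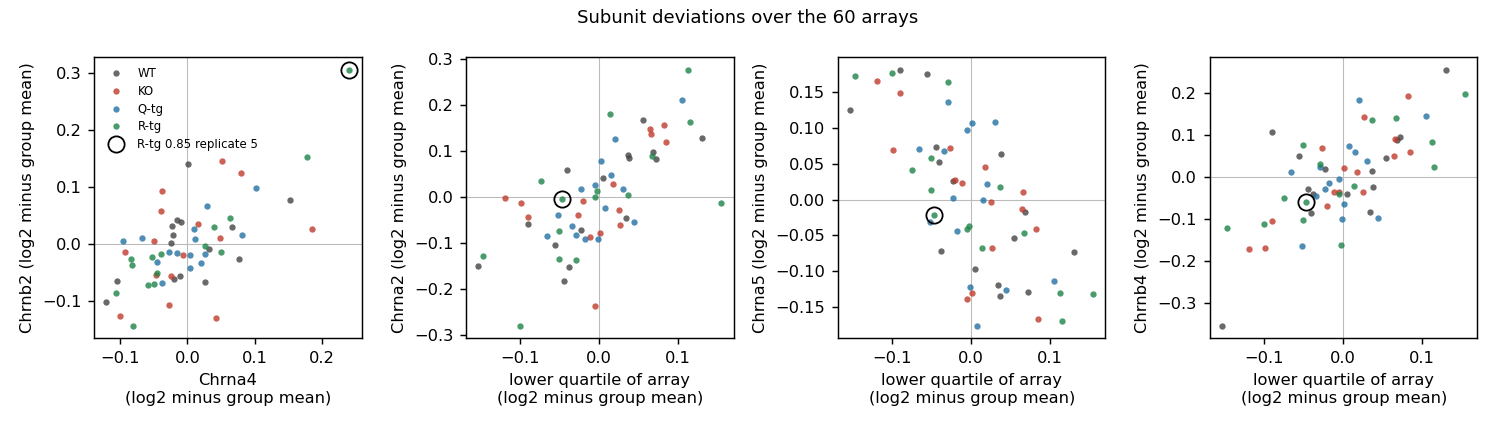
Each point is 1 of 60 arrays, as log2 signal minus the mean of its group, coloured by labelled genotype. The left panel sets Chrnb2 against Chrna4, and the other panels set Chrna2, Chrna5 and Chrnb4 against the lower quartile of the array; the ring marks the fifth array of R-tg at 0.85. Chrna2 and Chrnb4 rise with the lower quartile (r = 0.67 and 0.70), Chrna5 falls with it (r = -0.70), and the ringed array is the farthest point of the left panel only.

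Subunits were also set against the mean level of 18 marker lists, from other cholinergic genes to tissues that a pool could hold, and 68 of 162 relations (42.0%) passed adjustment over the 162, each with an r of at least 0.296 in size. Of the relations of the other 13464 genes above background to the same lists, 43.2% reached that size, so the count for the subunits is near that of genes at large. With the lower quartile removed, the shares at that size were 32.1% for the subunits and 31.1% for the other genes. The single relations below are descriptions against this background. Chrna4 followed the genes of cholinergic neurons at r = 0.73 (Spearman 0.72, adjusted p = 9.5e-05) and the receptor accessory proteins at 0.63 (Spearman 0.46), and neither fell when the lower quartile was removed (0.75 and 0.67). It also passed with other lists, among them synapse (0.58), thalamus (0.52), muscarinic receptors (0.52) and GABA neurons (0.51). Chrnb2 followed the GABA neuron genes at 0.74 (Spearman 0.52, adjusted p = 9.5e-05), and was 0.60 without the 2 farthest arrays. This was not particular to GABA neurons: among others, thalamus (0.61), catecholamine neurons (0.61), muscarinic receptors (0.58) and cortex (0.50) passed as well. Chrna3 followed the accessory proteins at 0.55 (Spearman 0.54, adjusted p = 9.5e-05), also after removal (0.49). Chrna6, which was below background, gave 0.49 with the GABA neuron genes (Spearman 0.45, adjusted p = 0.000309). Chrna7 gave 0.50 with the same list (Spearman 0.32, adjusted p = 0.000389) and 0.46 with the synapse genes (Spearman 0.40, adjusted p = 0.00117). For Chrnb4 the relation to catecholamine neuron genes held in part, at 0.60 before and 0.39 after removal (adjusted p = 0.0117). Its relations to skeletal muscle genes (0.53) and to the muscle and sensory nicotinic subunits (0.65) were -0.19 and -0.15 after removal. Chrna5 was negative with the same lists, at -0.62 and -0.71, and -0.063 and -0.21 after removal. Chrna2 followed erythroid genes, of which 2 of 4 were above background, at 0.65 before and 0.35 after removal (adjusted p = 0.0249). How far the share of brain regions or of neighbouring tissue in a pool enters these relations was not tested.

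The genes whose pattern over the 60 arrays was most like that of a subunit were ranked by r among 13464 genes above background, group means removed, as a description. For Chrna4 they were Clstn1 (0.81), Hpcal1 (0.79) and Iglon5 (0.79), and for Chrnb2 they were Men1 (0.85), Srebf2 (0.85) and Ankrd54 (0.85). For Chrna3 they were Dhcr7 (0.69), an enzyme of cholesterol synthesis, Rsu1 (0.68) and Pkp4 (0.66). Chrna7 had Pggt1b (0.67), Sgsm1 (0.66) and Samd5 (0.66), and Chrna5 had Ift57 (0.75), Slc30a4 (0.71) and Nars2 (0.70). Chrnb4 had Oxt (0.78), the hypothalamic hormone oxytocin, Col4a3 (0.78) and Derl3 (0.77). None of these genes was also among the first 3 of another subunit.

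One array stood out among the brighter subunits. The fifth array of R-tg at 0.85 had the highest value of all 60 for Chrna3, Chrna4, Chrna7 and Chrnb2, and it ranked first for the mean level of the cortex, GABA neuron, thalamus and catecholamine neuron lists and 52nd for hindbrain and spinal cord genes. Its Hoxa5 signal, a mark of hindbrain and spinal cord, was 6.31, against 7.99 on the fourth array of the same group, which had the lowest Chrna7 and Chrnb2 of all 60. These are 2 arrays chosen for their subunit values. Over all 60 arrays, group means removed, the hindbrain and spinal cord list gave r = 0.15 with Chrna4, 0.029 with Chrna3, -0.18 with Chrna7 and -0.24 with Chrnb2. None passed (permutation test, adjusted p = 0.348, 0.868, 0.271 and 0.114). The GABA neuron list gave 0.74 with Chrnb2, 0.51 with Chrna4, 0.50 with Chrna7 and 0.28 with Chrna3. For the thalamus list these were 0.61, 0.52, 0.42 and 0.26. With both lists, all but Chrna3 passed. The catecholamine neuron list passed with Chrnb2 (0.61) and Chrna4 (0.47), but not with Chrna7 (0.21) or Chrna3 (0.053). Of these subunits, the cortex list passed with Chrnb2 only (0.50). Among other genes, 43.2% of list relations reached 0.296 in size. The part of differences between such arrays in the results above was not tested further, beyond the values given without single arrays.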

How the data were processed

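Deposited log2 values were made by the authors with RMA (background correction, quantile normalization and summary per transcript cluster), with the oligo package under R 2.15.1, per the submitters' processing notes; the build behind the array annotation is not given in the sources used here. The values were used as deposited. Of 28858 transcript clusters, the 21789 with exactly 1 platform gene symbol were tested, 1621 had several symbols and 5448 had none. The number of arrays, 60, limits the precision.

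In R 4.3.3 with limma 3.58.1, the 60 arrays were fitted with 1 mean for each of the 12 labels with moderated statistics. From this fit came 21 contrasts: 8 of CPO against dose 0, 2 averages of these, 4 of untreated genotypes and 7 that compare the response to CPO between genotypes. Tests were 2-sided, with Benjamini-Hochberg adjustment over the 21789 transcript clusters and a threshold of 0.05. Correlations used values minus group means and 100000 permutations of the arrays in Python 3.11.15, with list members that are subunits left out of the lists. The permutations made no allowance for the group means removed. Calls with an adjusted p just under 0.05, also among the pairs and list relations counted as passing, are therefore uncertain. The scripts were tested on simulated data.

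The text names the 9 subunits, at most 4 genes of a list and the 3 genes most alike to each subunit above background, with symbols of the form Gm, Rik, LOC or Mir left out, and Pon1, Gh and Hoxa5 as checks of the arrays. The members and the lists were chosen with earlier results of these data known. Alternatives were a filter on dim rows, all rows, a trended variance prior, array weights, median centring, a replicate block, the lower quartile as covariate, only the groups compared, the arrays with Pon1 against the label left out, and each array left out in turn. Same-numbered replicates of different groups did not deviate together (median r -0.025 over 330 pairs, against 0.011 over 1320 pairs with different numbers), so the numbers were not taken as pairs.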

Additional observations from a re-analysis of the deposited data

Results flagged for a closer look

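Of 108 sets of 5 arrays (9 subunits in 12 groups), 4 held 1 array whose distance from the rest exceeded Dixon's 95% limit of 0.71 of the group's range; chance flags about 5% of such groups. Chrna4 was 10.06 on the fifth array of R-tg at 0.85, while the other 4 arrays of the group lay between 9.73 and 9.77. Chrnb2 was 9.921 on the same array, with the others between 9.474 and 9.593. Chrna3 was 9.044 on the first array of WT at 0.85, with the others between 8.875 and 8.915. Chrnb3, which is below background, was 6.196 on the second array of WT at 0, with the others between 6.34 and 6.352; this array is also one of the 10 whose Pon1 level goes against the label.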

How the results depend on the processing

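No subunit was called in any of the 21 contrasts under the planned fit, under any of the 60 fits that left out 1 array, or under the 9 other settings, with limma throughout. The F test gave no call either where it was run, which leaves out the fits on only the groups of a contrast. The smallest adjusted p over all of them was 0.0950, for Chrna2 in the response at 0.75 of KO minus WT with array weights. The replicate block left 0 calls in the contrasts, 9 pairs of subunits and 66 relations to marker lists, against 9 and 68 without it. Leaving out 1 array gave 6 to 6 subunits above background, 0 to 0 calls, 7 to 11 pairs and 61 to 74 list relations. The count above background was 4 against the 99th percentile of olfactory receptors, 9 against their median and 9 against vomeronasal receptors, whose array rows are dimmer. With the lower quartile of the array removed, 10 pairs and 46 list relations passed. The sign changed in 2 of the 9 called pairs, where Chrna2 with Chrna5 became 0.16 and Chrna2 with Chrnb4 -0.026, and in 6 of the 68 called list relations. Of those 6, Chrnb4 became -0.19 with skeletal muscle genes, -0.15 with the other nicotinic subunits and -0.11 with erythroid genes, Chrna2 became -0.28 with skeletal muscle genes and 0.036 with the accessory proteins, and Chrna5 became 0.081 with peripheral ganglia genes. Including those not called, 6 of 36 pairs, among them Chrna5 with Chrnb4 at 0.38, and 39 of 162 list relations changed sign; the cause was not tested. The lower quartile was planned as a covariate with earlier results known, and the checks of the neighbouring genes with it removed were chosen after seeing the data. Taking a gene's dimmest row instead was not run, since each subunit has 1 row.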
